A study of Rattus norvegicus with 12 samples.

Results

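Cultured retinal ganglion cells (RGCs) of the rat, which carry the output of the retina to the brain, were compared after endothelin-3 (ET-3) and after endothelin-1 (ET-1) and endothelin-2 (ET-2) combined. The comparison used 9 of the 12 arrays of the series: 3 with ET-3, 3 with ET-1 and 3 with ET-2, each peptide at 100 nM for 24 h. The other 3 arrays came from untreated cells, which part of the labels call vehicle. For each biological replicate number from 1 to 3, the mean log2 signal of the ET-1 and ET-2 arrays was subtracted from that of the ET-3 array. Members were all probe sets with a single annotated gene symbol, 20826 of 31042 on this Affymetrix rat array, which name 14217 genes. Tests and probe set counts ran over all 15521 probe sets past a filter on dim signal, 12193 of them with a single symbol.

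All cells came from Sprague-Dawley pups aged 4 to 6 postnatal days and were purified by panning on a Thy-1.1 antibody. Every group was grown for 7 days without serum but with BDNF, CNTF and forskolin, and spent a night without neurotrophic factors before treatment. The labels call the numbers biological replicates and do not say whether each stands for a separate litter or dissection, so p-values measure the spread between these samples.

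Endothelins are short vasoactive peptides that act on G protein-coupled receptors of type A and type B. The A receptor binds ET-1 and ET-2 far more tightly than ET-3, whereas the B receptor binds all of them about equally. Both receptors can raise calcium through phospholipase C and activate mitogen-activated kinases, and both have been studied in the retina in glaucoma models. Setting ET-3 against the other ligands asks whether a transcript depends on which receptor is engaged, at the single dose and time tested. The receptor genes and Edn3 were not analysed here.

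RGC markers were read on all arrays. Of 24 RGC genes listed, 20 had a named probe set and all 20 passed the filter on dim probe sets (the median signal), while 1 of 12 photoreceptor and 1 of 7 bipolar cell genes did, the latter being Isl1, which the RGC list holds too. Of 13 amacrine and horizontal cell genes, 9 passed, among them Pax6, Calb2, Gad1, Gad2 and Tfap2b, while Slc32a1, Chat, Tfap2a and Lhx1 did not. Part of the markers of that class were thus present, although Pax6 and Calb2 are not particular to it and occur in RGCs too. The median ET-3 difference of the 9 was 0.033. Fibroblast genes followed the replicate number. Col1a2, a collagen chain, read 11514, 2417 and 1774 in untreated cells under numbers 1, 2 and 3, whereas the smooth muscle genes Tagln and Acta2 ran the other way, at 2708, 4637 and 5003 and 544, 687 and 793. Under numbers 1, 2 and 3 the summed signal of the 15 pericyte, smooth muscle and fibroblast genes was 58275, 17927 and 14725 in untreated cells, 60395, 21345 and 18319.9 with ET-1, 63805, 16957 and 16165 with ET-2 and 59472, 20247 and 16894 with ET-3. This sum was high on all 4 arrays of number 1 through its fibroblast members. Every per-array value is given here in the order of the numbers.

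No probe set distinguished ET-3 from the mean of ET-1 and ET-2. Of the 15521 probe sets that passed the filter, 0 passed an adjusted p of 0.05 (0% of those tested; limma with the replicate number as a block), and the lowest adjusted p was 0.9997. An unadjusted p under 0.05 was found in 391 (2.52%), where the threshold alone would give 776. The error of this main fit takes in the untreated arrays. A fit of the 9 endothelin arrays alone gave 632, with a lowest adjusted p of 0.295 (limma), so the count depends on the fit. The median log2 difference was 0.00078, the lowest 5% of differences lay below -0.18 and the highest 5% above 0.17. In the same main fit the mean of the 3 endothelins against untreated gave 758 calls (4.88%), 151 of them without a single symbol. Of the 758, 549 were higher (3.54%) and 209 were lower (1.35%), so responses to the peptides were measurable on these arrays.

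The pairs of ligands gave the same count. ET-3 against ET-1, ET-3 against ET-2 and ET-2 against ET-1 each had 0 calls of 15521 (0%; limma, adjusted over the 3 pairs together), with an unadjusted p under 0.05 in 347, 583 and 574 probe sets. The SD of the log2 differences over probe sets was 0.12, 0.13 and 0.13. ET-2 and ET-1, ligands of both receptors, thus lay about as far from each other as ET-3 lay from ET-1 or from ET-2. ET-3 was the highest of the 3 endothelin arrays under every number in 535 probe sets and the lowest in 442, together 977 (6.29%). ET-1 was outermost in this way in 960 and ET-2 in 1506.

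**Figure D1:**
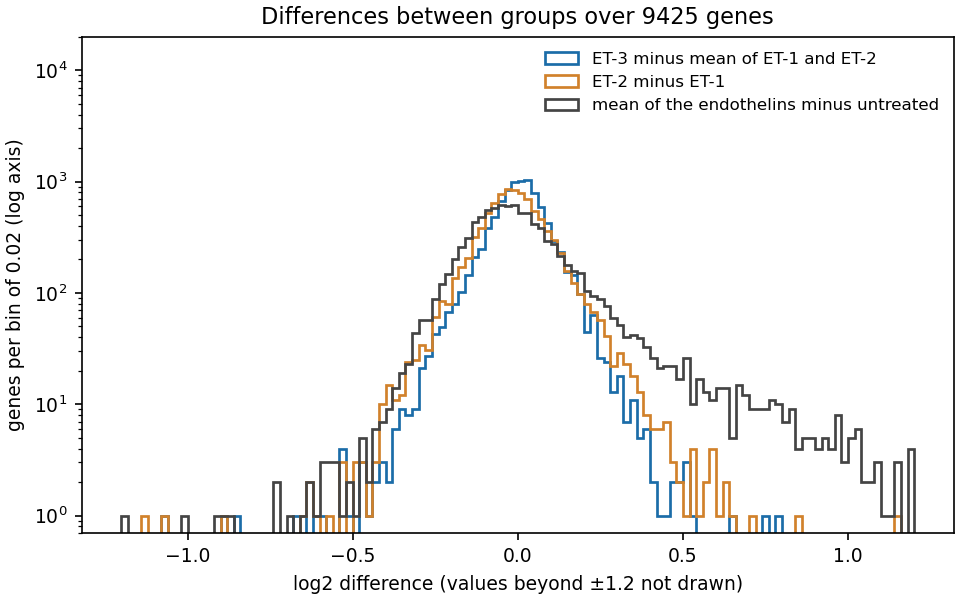
Number of genes (vertical log axis) by log2 difference (horizontal axis) for 9425 genes, 1 probe set each: ET-3 minus the mean of ET-1 and ET-2, ET-2 minus ET-1, and the mean of the endothelins minus untreated. Both differences among endothelins are narrow and centred near 0, while the comparison with untreated has a long tail of higher genes.

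Over all tested probe sets the ET-3 differences did not recur from number to number. Across the 15521 probe sets, the differences under numbers 1 and 2 correlated at r = -0.10, those under 1 and 3 at r = -0.0017 and those under 2 and 3 at r = 0.00026. For ET-2 minus ET-1 the same correlations were 0.077, 0.036 and 0.11, and for the mean response to the endothelins they were 0.45, 0.30 and 0.30. Probe sets are not independent replicates, and these values are a description.

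The 95% intervals of the difference (limma fit of all arrays, untreated included, unadjusted) show what the comparison could resolve. Their median half-width was 0.20 on the log2 scale, or 1.15-fold. The whole interval lay within 1.5-fold in either direction for 14903 probe sets (96.0%) and within 2-fold for 15483 (99.8%). The estimate itself reached 1.5-fold in 18 probe sets, 7 higher and 11 lower with ET-3. These were dim, with mean signals from 148 to 336 against a median of 591 over all tested, and ET-3 was outermost under every number in 8 of them.

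Genes that responded to endothelin came next, since a ligand difference could be read there. In this balanced design the estimate that selected them, the mean of the 3 endothelins against untreated, is uncorrelated with the ET-3 difference. Over the 549 probe sets that rose, the median log2 change was 0.59 with ET-1, 0.54 with ET-2 and 0.62 with ET-3, all against the same untreated arrays. Over the 209 that fell it was -0.26, -0.26 and -0.29. None of either set was called for ET-3 against the others. An unadjusted p under 0.05 was found in 18 and 7 of them (3.28% and 3.35%, beside 2.52% over all tested). The interval lay within 1.5-fold for 484 of the 549 and 207 of the 209.

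Over the raised probe sets the median ET-3 difference was 0.047, and 392 of 549 were above 0, against 7828 of 15521 over all tested. By number it was 0.050, 0.099 and 0.00014, so the median of number 3 did not show it, and without the ET-3 array of number 3 it was 0.11. ET-3 was the highest ligand under every number in 53 of the 549 and the lowest in 6, against 535 and 442 of 15521 over all tested. ET-2 was the ligand on the low side. It was the lowest under every number in 56 and the highest in 12, against 792 and 714 over all tested. For ET-1 these counts were 31 and 22, against 455 and 505. Probe sets are not independent, so the counts are a description. The median of ET-3 minus ET-1 was 0.014, that of ET-3 minus ET-2 was 0.080 and that of ET-2 minus ET-1 was -0.068. The last came mostly from number 2, at -0.18, with 0.028 and -0.027 under numbers 1 and 3. The ET-2 array also had the highest median signal of the endothelins under every number. It was 141.7, 150.3 and 181.0, against 139.0, 138.3 and 172.3 with ET-1 and 139.5, 143.1 and 174.5 with ET-3. With median centring, ET-2 minus ET-1 had 1214 unadjusted p under 0.05 (limma) in place of 574. The part of array scaling in the place of ET-2 was not tested. Over the lowered probe sets the median ET-3 difference was -0.021.

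**Figure D2:**
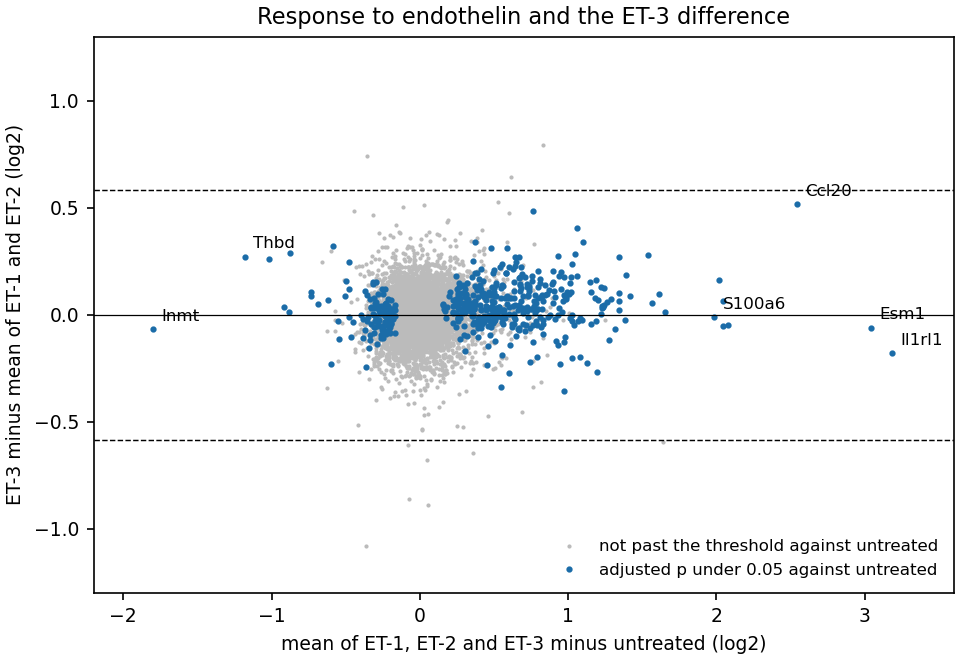
Each point is a gene: horizontally its log2 response to the 3 endothelins against untreated, vertically its log2 difference of ET-3 from the mean of ET-1 and ET-2; dashed lines mark 1.5-fold. Genes past the threshold against untreated lie between the dashed lines over the whole range of responses, from Inmt to Il1rl1. Of the raised probe sets, 392 of 549 had a difference above 0.

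Il1rl1, the receptor of interleukin-33, had the largest response. Its signal was 656, 246 and 199 in untreated cells, 11567, 1929.7 and 1879.8 with ET-1, 12271, 916 and 1579.6 with ET-2 and 12146, 1117 and 1380.2 with ET-3. Every endothelin array lay above every untreated array, and the gap between number 1 and the other numbers was wider than any gap between ligands. The ET-3 difference was -0.18 ± 0.26 (SE of the limma fit of all arrays, n = 3 numbers), with an interval from -0.76 to 0.39. By number the difference was 0.028, -0.25 and -0.32. The SE is not the spread of these values alone. It also takes in how the step from untreated varied between numbers, as do the other ± values and intervals given for single genes. The changes from untreated were 3.45, 3.04 and 3.06 with ET-1, ET-2 and ET-3. Esm1, a proteoglycan secreted by endothelial cells, read 381, 102 and 247 in untreated cells, 5003, 908 and 1424 with ET-1, 5339, 706 and 1288 with ET-2 and 5937, 826 and 1006 with ET-3. ET-3 was the highest ligand under number 1 and the lowest under number 3, and its difference was -0.061 ± 0.21 (interval -0.52 to 0.40). S100a6, a calcium-binding protein, read 12188, 4521 and 4608 with ET-1, 13617, 3157 and 4047 with ET-2 and 12420, 4165 and 3967 with ET-3. Its ligand groups overlapped, at a difference of -0.012 ± 0.16.

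Genes of prostaglandin synthesis were raised by the endothelins: the cyclooxygenases Ptgs1 and Ptgs2 by 2.07 and 1.56 and the prostaglandin E synthase Ptges by 1.65 on the log2 scale. Their ET-3 differences were -0.047 ± 0.37, 0.053 ± 0.20 and 0.011 ± 0.38, and ET-3 kept no fixed place among the ligands in any of them. By number the differences were 0.00048, 0.14 and -0.28 for Ptgs1 and 0.10, 0.048 and -0.12 for Ptges. Ptgs2 read 3323, 1222 and 628 with ET-1, 3834, 783 and 570.4 with ET-2 and 3224, 1265 and 572 with ET-3. A second probe set of Ptges gave -0.15. The activin antagonist Fst had 0.099 ± 0.25 (second probe set -0.17), and Hrct1 had 0.28 ± 0.31.

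Ccl20, a chemokine that attracts CCR6-bearing leukocytes, had the largest positive difference among the 10 most raised genes. Its signal was 257, 29.6 and 86.6 in untreated cells, 4467, 287 and 108 with ET-1, 5707, 131 and 81.3 with ET-2 and 5823, 339 and 136 with ET-3. The ET-3 array was the highest ligand under all 3 numbers, but the difference of 0.52 ± 0.54 had an interval from -0.65 to 1.68. Under number 3 the ET-2 array was below the untreated one. Il6 (interleukin-6) read 3102, 284 and 368 with ET-1, 3573, 197 and 281 with ET-2 and 3388, 317 and 331 with ET-3, a difference of 0.16 ± 0.48. Of the 10 most raised genes, 8 had an interval within 2-fold and 3 within 1.5-fold, and Ccl20 and Il6 were the ones beyond 2-fold.

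Among the 10 genes that fell most, Thbd, Crym and Cldn11 had ET-3 signals above both other ligands under every number, although none was called. Thbd encodes thrombomodulin, an anticoagulant receptor. Its signal was 835, 616 and 572 in untreated cells, 315, 307 and 219.8 with ET-1, 370.3, 278 and 200.03 with ET-2 and 434, 348 and 243 with ET-3. The difference was 0.27 ± 0.10 (unadjusted p = 0.0219, adjusted p = 0.9997, limma). Crym, the thyroid hormone-binding protein mu-crystallin, read 1193, 2219.8 and 2036 in untreated cells, 441, 1105 and 1125 with ET-1, 561, 939 and 1012 with ET-2 and 578, 1206 and 1339 with ET-3, a difference of 0.26 ± 0.094 (unadjusted p = 0.0158, limma). All 9 endothelin arrays of Thbd lay below all 3 untreated ones. Cldn11, a tight junction claudin, read 453, 371 and 296 in untreated cells, 253, 144 and 146 with ET-1, 237, 159 and 214 with ET-2 and 258, 172 and 271 with ET-3. Its difference was 0.29 ± 0.16, with an interval from -0.055 to 0.63, and over the alternatives it ran from 0.088 to 0.40.

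The other strongly lowered genes lay closer to 0 relative to their error. Inmt, an N-methyltransferase, read 1268, 939 and 654 in untreated cells, 212, 286 and 382 with ET-1, 198, 319.9 and 258 with ET-2 and 244, 321 and 216 with ET-3, and its difference was -0.067 ± 0.22. The angiopoietin gene Angpt2 had 0.038, the matrix proteoglycan gene Ogn 0.011, Islr 0.090, the microfibril gene Mfap2 0.11, Ube3al1 0.049 and Tril 0.067. All 10 of these most lowered genes had an interval within 2-fold, and 9 within 1.5-fold.

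**Figure D3:**
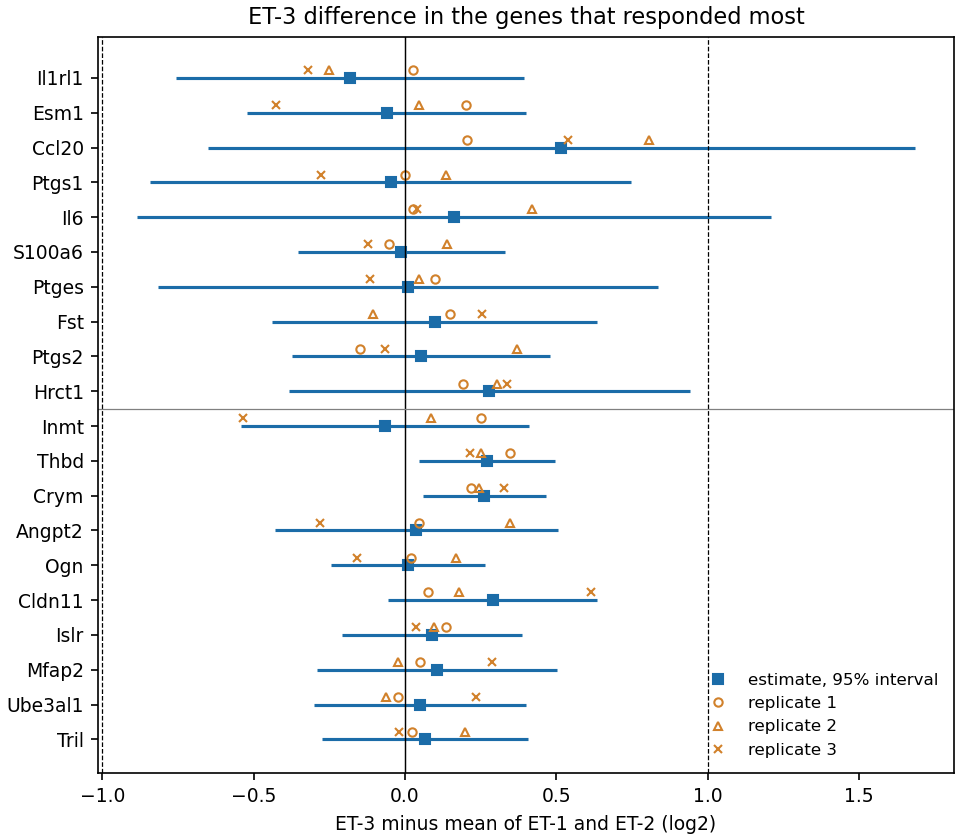
Log2 difference of ET-3 from the mean of ET-1 and ET-2 for the 10 genes raised most and the 10 lowered most by the endothelins; squares and bars are the estimate and its 95% interval, small symbols the value under each replicate number. The intervals of Thbd and Crym exclude 0 before adjustment, and those of Ccl20 and Il6 reach past 2-fold.

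**Figure D4:**
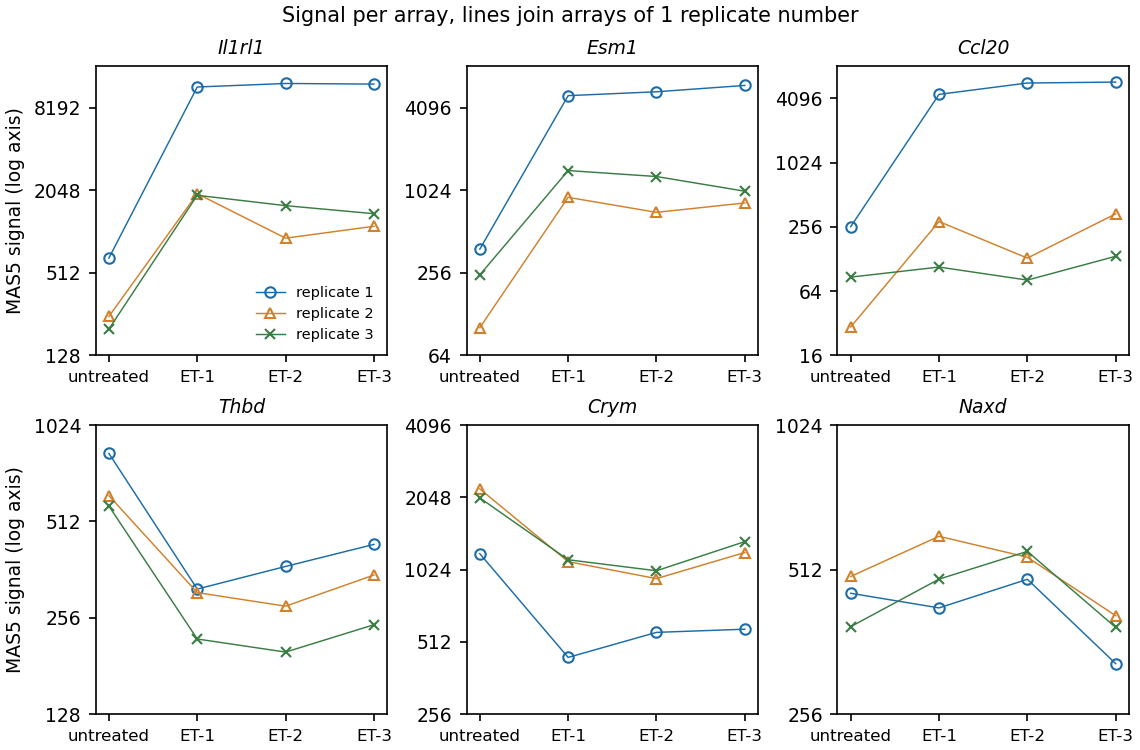
MAS5 signal (log axis) on all 12 arrays for 6 genes, with lines joining the arrays of each replicate number. For Il1rl1 and Esm1 the step from untreated exceeds the steps between ligands, and for Thbd, Crym and Naxd the ET-3 array is outermost among the endothelins under every number.

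Chemokine, cytokine and NF-kB genes had the largest median difference of the 20 pathway lists. Of 30 measured, 0 were called in either direction and 24 differences were positive (53.2% over all 9425 genes). The median was 0.11, beside 0.0062 over all genes. By number it was 0.029, 0.25 and 0.040. It was 0.044 without number 2 and 0.026 without the ET-3 array of number 2. ET-2 and ET-1 lay as far apart over these genes: the median of ET-2 minus ET-1 was -0.12, also the largest in size of the pathway lists. Against untreated, 12 of the 30 rose and 0 fell.

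Promoters of 4 list members that rose with the endothelins are printed because they share a kappa B-like motif, the type of sequence that NF-kB binds. The motif searched was GGGNNTTTC on both strands in the 250 bases before each gene's start, from RefSeq in build GRCr8, and capitals mark the matches. It was present in 1240 of 33469 promoters (3.70%) and, counted per gene, in 331 of 7917 tested genes with a promoter (4.18%). Also per gene, it was present in 9 of the 22 tested list members with a promoter, and in 6 of the 10 of those that rose. Motif and genes were chosen after the values were seen, and a match is a description of the letters only. The Ccl20 window is chr9:91836909-91837158 (plus strand) and that of Cxcl1 is chr14:17479322-17479571 (minus strand). The Cxcl2 window is chr14:17467256-17467505 (minus strand) and that of Il6 is chr4:5894576-5894825 (minus strand).
Ccl20: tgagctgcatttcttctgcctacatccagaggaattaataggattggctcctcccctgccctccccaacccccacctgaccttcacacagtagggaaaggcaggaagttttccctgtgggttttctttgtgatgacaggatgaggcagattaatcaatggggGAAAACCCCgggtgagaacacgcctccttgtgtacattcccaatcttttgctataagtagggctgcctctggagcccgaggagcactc
Cxcl1: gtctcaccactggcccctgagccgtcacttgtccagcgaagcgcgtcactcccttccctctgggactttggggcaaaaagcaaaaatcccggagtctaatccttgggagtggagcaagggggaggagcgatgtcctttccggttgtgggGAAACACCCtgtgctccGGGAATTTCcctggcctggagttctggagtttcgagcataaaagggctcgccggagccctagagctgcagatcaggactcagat
Cxcl2: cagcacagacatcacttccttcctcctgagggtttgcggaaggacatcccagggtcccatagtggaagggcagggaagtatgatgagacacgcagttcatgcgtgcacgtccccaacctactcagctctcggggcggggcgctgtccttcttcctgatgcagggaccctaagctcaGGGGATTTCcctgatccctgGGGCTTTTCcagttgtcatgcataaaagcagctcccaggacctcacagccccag
Il6: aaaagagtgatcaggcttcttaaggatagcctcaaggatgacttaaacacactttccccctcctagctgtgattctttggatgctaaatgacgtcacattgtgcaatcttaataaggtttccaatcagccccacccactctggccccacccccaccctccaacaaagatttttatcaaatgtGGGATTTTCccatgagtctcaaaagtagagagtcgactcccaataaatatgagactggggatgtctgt

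The chemokines behind these promoters gave no call by ligand. Cxcl1, a neutrophil chemokine, read 11376, 4258 and 4953 with ET-1, 12491, 2878 and 4789 with ET-2 and 11960, 4392 and 4673 with ET-3, and ET-3 was the highest ligand under number 2 and the lowest under number 3 (0.091 ± 0.18). Cxcl2, of the same family, read 1310.5, 1466 and 2493 with ET-1, 1253, 1012 and 2581 with ET-2 and 1476, 1543 and 2601 with ET-3. ET-3 was the highest each time, by 0.19 ± 0.15 with an interval from -0.13 to 0.51. Cxcl3 had 0.27 ± 0.22, and the monocyte chemokines Ccl2 and Ccl7 had 0.035 ± 0.17 and 0.033 ± 0.15. Nfkb2, an NF-kB subunit, had 0.27 ± 0.16. Nfkbiz, a nuclear regulator of NF-kB, was the list's only member with an unadjusted p under 0.05, at 0.23 ± 0.096 (unadjusted p = 0.0301, adjusted p = 0.9997, limma). Its ET-3 array was the highest ligand under numbers 2 and 3 and the lowest under number 1.

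Lists of signalling genes had no call. Over 32 genes of G protein and calcium signalling the median difference was 0.017. Plcg1, a gamma-type phospholipase C that fell with the endothelins, read 1189.5, 1293 and 951 with ET-1, 1146, 1209 and 961 with ET-2 and 1220.2, 1402 and 1125 with ET-3. ET-3 was thus its highest ligand under every number, by 0.15 ± 0.056 (unadjusted p = 0.017, limma). Over 18 cAMP and CREB targets 7 differences were positive and the median was -0.086, which became -8.2e-05 without number 2. The 10 nitric oxide and prostaglandin genes ran from -0.057 (Arg1) to 0.053 (Ptgs2). Medians were -0.0051 over 21 immediate early genes and 0.027 over 15 MAPK feedback genes.

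The lists that responded most to endothelin showed no ET-3 call either. Of 44 matrix and TGF-beta target genes 23 rose and 1 fell with the endothelins, and their median ET-3 difference was 0.031. The matricellular genes Ccn1 and Ccn2 had -0.026 ± 0.20 and 0.063 ± 0.073, and Tgfb3, a TGF-beta ligand, had 0.18 ± 0.098. Spp1 (osteopontin), named after its values were seen, read 5876, 1261 and 2504 with ET-1, 4904, 1067 and 2317 with ET-2 and 6548, 1611 and 2890.5 with ET-3. ET-3 was its highest ligand under every number, by 0.34 ± 0.22, and in a fit of the 9 endothelin arrays alone it had the lowest adjusted p of the comparison (0.295, limma).

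Of 32 cell cycle genes 11 rose and 0 fell with the endothelins, and the median ET-3 difference was -0.0069. Their intervals were wide, within 1.5-fold for 22 of 32, and the differences ran from -0.34 (Kif23) to 0.27 (Kif20a), both motors of cell division. Genes of apoptosis and p53, ER stress and heat shock had medians of 0.00048, -0.0088 and 0.011, with intervals within 1.5-fold for 20 of 20, 28 of 28 and 18 of 19.

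Metabolic lists were narrow. Every tested gene of the NRF2 and antioxidant (22), glycolysis and hypoxia (26), cholesterol synthesis (19) and oxidative phosphorylation (33) lists had its interval within 1.5-fold, with medians of 0.015, 0.018, 0.0058 and 0.022. P4ha2, a collagen prolyl hydroxylase that rose with the endothelins, had 0.17 ± 0.067 (unadjusted p = 0.0294, limma). Interferon response genes (9) had a median of 0.062, and the immunoproteasome gene Psmb8 had 0.30 ± 0.13.

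Neuronal lists had medians of -0.034 over 22 synaptic vesicle genes, -0.047 over 19 sodium and potassium channels and -0.0031 over 14 glutamate and GABA receptors, with 0 calls. Gria4, an AMPA receptor subunit, had the largest difference of any named gene, -1.08 ± 0.45. It read 795, 376 and 159.8 with ET-1, 308, 438 and 687 with ET-2 and 349, 273 and 74.1 with ET-3. ET-1 and ET-2 themselves changed places by over 2-fold between numbers 1 and 3, and a second probe set of Gria4 gave -0.054. Of the 20 RGC markers 0 were called, 10 differences were positive and the median was -0.0017, with 19 intervals within 1.5-fold. The RNA-binding protein gene Rbpms had 0.044. Isl2, a homeodomain factor of RGC subsets, had -0.36 ± 0.18, and its second probe set 0.20.

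Markers of other cells were read on the same arrays. The summed signal of 15 microglia and macrophage genes was 8594, 10662 and 6479 in untreated cells, 7686, 12262 and 7092 with ET-1, 7349.8, 10450 and 5535 with ET-2 and 7584, 13613 and 6726 with ET-3. ET-3 was the highest ligand under number 2 only, the number that carried most of the chemokine median, and the part of these cells in that median was not tested. The median difference of the 10 tested members was 0.085. It was 0.0014 without number 2 and turned to -0.026 without the ET-3 array of number 2, and the median of ET-2 minus ET-1 was -0.14. Tyrobp, a microglial signalling adaptor, had 0.51 ± 0.17 and C1qc, a complement subunit, -0.65 ± 0.26, and neither was called or kept its order under every number. A second probe set of Laptm5 had 0.95, uncalled, with ET-3 the highest ligand under every number, while the brighter one had 0.12. C1qb, below the filter, went the other way. It had -0.60 in a fit of all probe sets, with ET-3 the lowest ligand under every number. In bulk RNA, fewer cells of a type and less RNA per cell cannot be told apart.

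Of the astrocyte and Müller glia genes 6 were tested, with a median of 0.084. Clu (clusterin) read 5168, 8534 and 14115 with ET-1, 5199, 7705 and 14113 with ET-2 and 5426, 9191 and 15227 with ET-3, a difference of 0.12 ± 0.042 (unadjusted p = 0.0138, limma), and the intermediate filament gene Vim had 0.046 ± 0.051. Of 13 endothelial genes 4 were tested, among them the VEGF receptor Kdr at 0.32 ± 0.15 and Esam at -0.48 ± 0.26. The 12 tested pericyte, smooth muscle and fibroblast genes had a median of 0.0078. The oligodendrocyte lineage list had the largest median of all lists, 0.27, over 3 tested genes of 10 on the array. These were Cldn11 at 0.29 ± 0.16, the myelin gene Mbp at 0.27 ± 0.10 and Cnp at 0.063 ± 0.083, with 0 called. The lineage genes Olig1, Olig2 and Sox10 were below the filter. Members below it had mixed directions in a fit of all probe sets. Ugt8 had -0.69, Mobp -0.74, Olig1 -0.30 and Mag -0.0046, whereas Mog had 0.11 and Sox10 0.20. Olig2 had -1.98 (second probe set 1.08), and a second probe set of Cldn11 had -0.69.

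**Figure D5:**
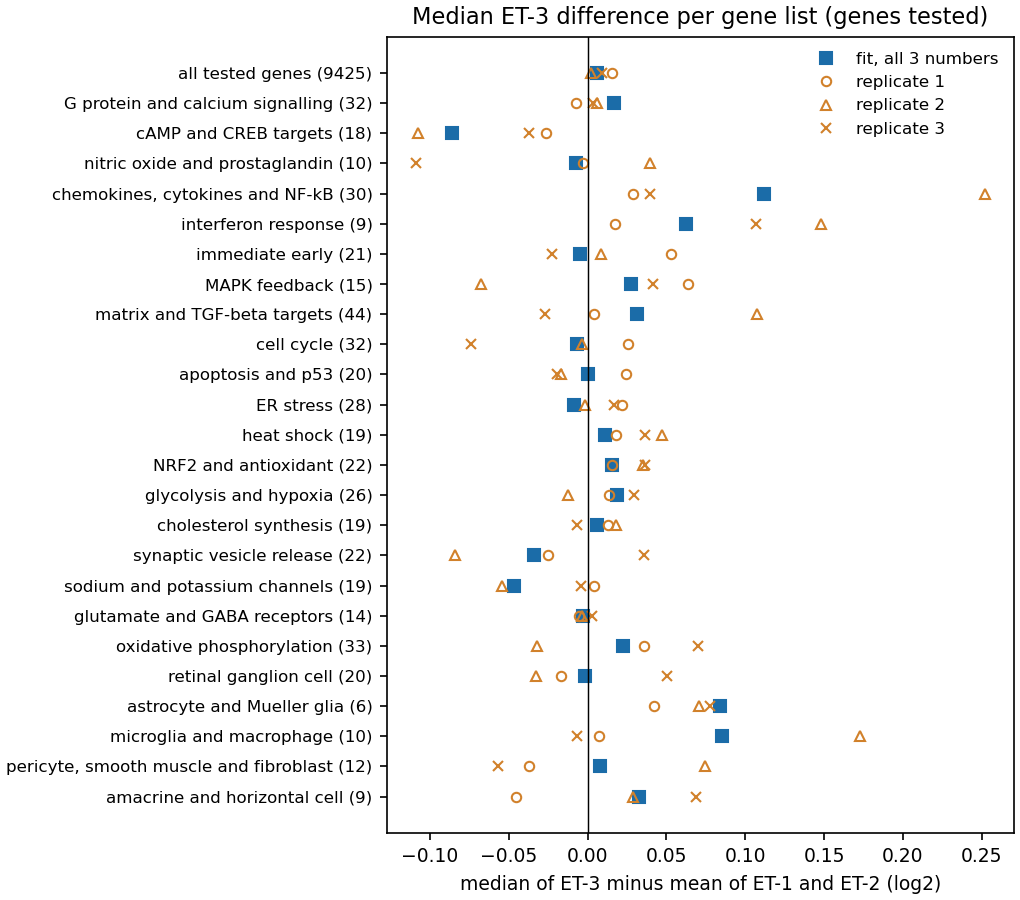
Median log2 difference of ET-3 from the mean of ET-1 and ET-2 for each gene list with at least 5 tested genes and for all genes; squares are the fit, small symbols the medians under each replicate number. The chemokine list lies highest of the pathway lists, with most of it from number 2, and the cAMP list lowest.

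Genes of the endothelin system gave no call. Ece1, an endothelin-converting enzyme, read 657, 538 and 544 with ET-1, 567, 454 and 454 with ET-2 and 607, 459 and 453 with ET-3, a difference of -0.082 ± 0.073. Ece2 had -0.027 ± 0.15, and its second probe set -0.030. Edn1, the ET-1 precursor gene, lay below the filter, at 59.4, 65.2 and 108 in untreated cells, 109.8, 127 and 124 with ET-1, 96.1, 102 and 117 with ET-2 and 112, 118 and 119.8 with ET-3. Its ET-3 difference was 0.055, with an interval from -0.36 to 0.47 in a fit of all probe sets. The protease genes Mme and Kel and the ET-2 precursor gene Edn2 were below the filter too.

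The genes nearest to a ligand difference were taken by their p-values, so they are a description. ET-3 was outermost under every number with a difference of at least 1.2-fold in 50 genes on the higher side and 30 on the lower side, and the 15 with the smallest p were taken from each. On the higher side the differences ran from 0.26 to 0.47. Slpi, a secreted inhibitor of leukocyte proteases, was the 1 gene of these 15 that was also called against untreated. It read 5588, 515 and 362 in untreated cells, 7724, 711 and 422 with ET-1, 7965, 572 and 298 with ET-2 and 8475, 851 and 501 with ET-3, a difference of 0.34 ± 0.10. Tmem35b had the smallest p of this side (0.00244, adjusted p = 0.9997, limma) and a difference of 0.37 ± 0.099.

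The others on the higher side were Rad50, of DNA double-strand break repair (0.39, second probe set 0.19), the homeodomain cofactor Hopx (0.29), Rae1, of messenger RNA export (0.26, second probe set -0.038), Metrn, a secreted neurotrophic protein (0.44), and Agtrap, which binds the angiotensin receptor (0.37). The kinesin Kif1c (0.38), the transcription factor Foxp2 (0.47) and the myelin gene Mbp (0.27) were among them, with Blzf1 (0.38), Tyw1 (0.37), Dhrsx (0.28), Dph7 (0.32) and Scnm1 (0.31). None of these was called against untreated.

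On the lower side the differences ran from -0.68 to -0.28. Naxd, which repairs hydrated NAD(P)H, had the smallest p of the whole comparison. It read 457, 495 and 389 in untreated cells, 426, 601 and 489 with ET-1, 489, 543 and 559 with ET-2 and 326, 410.4 and 388 with ET-3. All 3 ET-3 arrays lay below all 6 arrays of the other ligands, a difference of -0.46 ± 0.099 (unadjusted p = 0.000471, adjusted p = 0.9997, limma). Gpx3, the extracellular glutathione peroxidase, read 637, 771 and 848 with ET-1, 685, 1009.9 and 1190.2 with ET-2 and 568, 615 and 764 with ET-3, a difference of -0.38 ± 0.097.

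The remaining genes of the lower side were Asb3 (-0.52), the chromatin gene Gatad2b (-0.68), the phosphatase Dusp23 (-0.38), Nmral1 (-0.35), Ddx3x-ps1 (-0.35), Lime1 (-0.44), Zfp574 (-0.32, second probe set 0.33), Atf7ip (-0.36, second probe set 0.053), the microtubule protein Map1a (-0.29), Serac1 (-0.36), Rabl2 (-0.28), Nrbp1 (-0.28) and the tubulin-modifying enzyme Ttll5 (-0.31). None of the 15 was called against untreated. Sizes in this group moved with the arrays used: over the alternatives, leaving out arrays included, Gatad2b ran from -0.84 to -0.35, Map1a from -0.42 to -0.14, Rabl2 from -0.38 to -0.16 and Nrbp1 from -0.37 to -0.13.

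Each ligand was also set against the same untreated arrays. With ET-3 410 probe sets passed the threshold (2.64%), with ET-1 268 (1.73%) and with ET-2 249 (1.6%). Of the 149 that passed with ET-3 and with neither other ligand, 0 were called for ET-3 against the others. Their median changes were 0.26, 0.23 and 0.37 with ET-1, ET-2 and ET-3, and since they were chosen on their ET-3 values this gap is a description. Of the 93 that passed with ET-1 or ET-2 and not with ET-3, 0 were called as well.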

How the data were processed

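The deposited table holds 1 MAS5 signal intensity per probe set and array on a linear scale; MAS5 is named in the submitters' processing notes, without its version or scaling target. Array medians ran from 136 to 181 and means trimmed by 2% from 496.7 to 498.3. Symbols came from the platform annotation (20826 probe sets with 1, 436 with several, 9780 with none). Values were taken to log2 without a pseudocount, and the 15521 probe sets with a mean at or above the median (signal 147.5) were kept, covering 9425 genes by their brightest probe set. limma 3.58.1 in R 4.3.3 fitted 4 group means over 12 arrays with the replicate number as a block and eBayes with an intensity trend (two-sided, Benjamini-Hochberg, threshold 0.05). The scripts were tested on simulated data. The number of arrays limits the precision.

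The pairing of numbers rests on the values: deviations from group means correlated in all 18 same-numbered pairs (r from 0.68 to 0.91), and the residual SD was 0.13 with the block and 0.25 without. Genes named were the 15 per direction and the 10 most raised and lowered genes described above, the endothelin system and up to 3 per list by p; others were chosen after their values were seen. Members and the 29 lists were chosen with earlier results of these data known. The interval counts, the medians over raised probe sets and over lists, robust eBayes and the motif search were added after seeing the data. Alternatives were no block, 9 arrays alone, no or a lower filter, median centring, quantile normalization, a pseudocount of 16, no trend, adjustment over single-symbol probe sets, robust eBayes, and leaving out each array or number.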

Additional observations from a re-analysis of the deposited data

How the results depend on the processing

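ET-3 against the mean of ET-1 and ET-2, the 3 pairs and the gene lists each kept 0 calls under all 25 alternatives. The fit with no replicate block gave 0, with 29 unadjusted p under 0.05 (limma), and with the 9 endothelin arrays alone 632 were under 0.05. Without pairing by number, 10508 intervals lay within 1.5-fold, the fewest of all alternatives. The set called for all endothelins against untreated depended on the fit: its 758 calls became 0 with no replicate block, 1492 with median centring (426 higher and 1066 lower) and 438 with no intensity trend. With arrays or numbers left out it ran from 224 to 1014, with 226 without number 1, 224 without number 2, 334 without the untreated array of number 1 and 484 without its ET-2 array. The median ET-3 difference over the raised probe sets then ran from 0.022 to 0.11. The 30 genes taken by p were never called (lowest adjusted p 0.849, limma), and 8 of them moved by over 1.5 times in some alternative; the rule that chose them fixes their sign when arrays are left out. Of the 20 responders 13 changed the sign of an uncalled difference at least once.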
